A study of Coturnix japonica with 54 samples.

Results

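The genes of the endoplasmic reticulum that move, glycosylate and fold secretory proteins were followed in the pituitary gland of 54 male Japanese quail (Coturnix japonica) across a simulated year of day length. The genes were chosen by a list of 41 gene symbols, of which 40 had a row among the 16448 genes in the deposited counts. SSR4 was not analysed here. The birds were sampled in 9 groups of 6, with 1 library of polyadenylated RNA per bird, read as long cDNA molecules on Oxford Nanopore flow cells. All birds began on 16 h of light per day, day length was then lowered in steps of 2 h to 8 h and raised again to 16 h, and each step lasted 2 weeks. Each group is named for its hours of light and for the arm of the cycle. 16La, 14La, 12La and 10La stand for the declining, autumn-like arm, 8L is the turning point, and 10Lv, 12Lv, 14Lv and 16Lv stand for the rising, spring-like arm. 16La birds had therefore not yet met short days, whereas 16Lv birds had passed through the whole cycle and were sampled last, so that light history and time in the experiment cannot be told apart. The question put to the data was whether the capacity genes of the secretory pathway, as a group and singly, followed day length. They were set beside 5 hormone genes, not all of which followed it.

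Hormone precursors enter the endoplasmic reticulum through the SEC61 channel, helped by the SEC62 and SEC63 proteins and by the signal sequence receptor (SSR) complex, and signal peptidase removes their leader sequence. Oligosaccharyltransferase attaches N-linked sugars to glycoproteins such as the gonadotropins and thyrotropin, while chaperones and protein disulfide isomerases complete folding. When unfolded proteins accumulate, the unfolded protein response, in which the transcription factor XBP1 takes part, raises the expression of many of these genes in animal cells.

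Expression was measured from the largest transcript count of each gene in each bird. Levels are given in CPM, the count scaled to a library of 1000000 largest-transcript counts, without correction for transcript length, so that they compare birds and not genes. Library totals ran from 2815 to 77713 (median 20425), and 1 count was worth between 12.9 and 355 CPM. Group means are given ± SD over the 6 birds of a photoperiod unless another n is stated. In 9 libraries fewer than 2000 genes were detected, and 7 of these came from the bird with the highest number in its photoperiod. LOC107307159, a protein-coding locus with no other name in the files, and ACOT9, an acyl-CoA thioesterase, took 53.9 ± 15.2% of the counts in these 9 libraries (SD, n = 9) and 29.5 ± 7.18% in the others (SD, n = 45).

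The 40 genes held 6830 of 1277690 counts. Their role groups took unequal parts, with 2289 counts from chaperones and their cofactors, 1890 from the translocation channel, 1191 from oligosaccharyltransferase, 886 from disulfide enzymes, 449 from signal peptidase and 125 from XBP1. Counts per gene and bird were low, with a median of 2 and a maximum of 34, and 25.7% of all values were 0. The filter on low counts passed 31 of the 40 genes, and the other 9 (DNAJB9, DNAJB11, ERO1A, ERO1B, SPCS1, SPCS2, SEC11A, STT3A and TXNDC5) had between 10 and 84 counts over all 54 birds and received no test.

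At 16La the 40 genes took 0.495% of the library in the lowest bird, 0.611% at the median and 0.646% in the highest, with a mean of 0.596 ± 0.0554%. At 8L the lowest, median and highest birds had 0.243%, 0.443% and 0.572%, with a mean of 0.449 ± 0.120%. 5 of the 6 birds at 16La lay above every bird at 8L, and the mean at 8L was 0.753 times that at 16La. Between these ends, 14La birds had a mean of 0.592 ± 0.124%, 12La birds one of 0.435 ± 0.165% and 10La birds one of 0.427 ± 0.179%. As days lengthened, the mean was 0.433 ± 0.125% in 10Lv birds, 0.547 ± 0.195% in 12Lv birds, 0.505 ± 0.119% in 14Lv birds and 0.492 ± 0.128% in 16Lv birds. Over all libraries the 2 long-day groups of the declining arm thus had the highest means, and the groups from 12La to 10Lv had means close to one another with overlapping birds. These 2 groups held none of the libraries with the fewest genes detected, which are set apart below. Without those libraries 12Lv had the highest mean, 0.644 ± 0.0807% (SD, n = 4). No test was made on this sum, because the genes were listed with earlier results of these data known.

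The share differed with the number of genes detected. It was 0.297 ± 0.158% in the 9 libraries with fewer than 2000 genes (SD, n = 9) and 0.537 ± 0.103% in the other 45 (SD, n = 45). With LOC107307159 and ACOT9 left out of the library total, these means were 0.614 ± 0.166% and 0.764 ± 0.133%, which lie closer together. In a bird 13.3 ± 3.94 against 33 ± 5.04 of the 40 genes were detected. Among the 9, the library with the fewest counts, 2815 at 16Lv, had the highest share, 0.568%. That share rested on 16 counts, with a 95% Wilson interval of 0.350 to 0.921%. The lowest share, 0.131%, was in a library of 6868 counts at 12La. The one with the most counts, 16431 at 8L, had 0.243%. The cause of the lower share was not tested. None of the 9 libraries came from 16La or 14La, which kept 6 birds each without them. 12Lv and 16Lv then kept 4 birds each, and the other photoperiods kept 5 each. Group means over all libraries are therefore not balanced for these libraries. Without the 9 libraries the mean at 8L was 0.490 ± 0.0737% (SD, n = 5), 0.822 times that at 16La, and 12Lv had the highest mean of the 9 groups, 0.644 ± 0.0807% (SD, n = 4). When the counts of a group's 6 birds were pooled, the share was 0.618% at 12Lv (95% Wilson interval 0.573 to 0.666) and 0.602% at 16La (0.569 to 0.637), and these intervals, which cover counting error only, overlap. With LOC107307159 and ACOT9 left out of the library total, the share was 0.864 ± 0.0505% in 16La birds, 0.887 ± 0.103% in 14La birds and 0.658 ± 0.0725% in 8L birds. On that scale all 6 birds at 16La and all 6 at 14La lay above every bird at 12La, 8L and 10Lv, and 1 bird at 10La reached into their range. Over all birds the mean was 1.31 times that at 8L in 16La birds and 1.35 times in 14La birds. In the rising arm it was 1.22 times that at 8L in 12Lv birds and 1.13 times in 14Lv and 16Lv birds. Of 6 birds each, 4 at 12Lv, 3 at 14Lv and 3 at 16Lv lay above every bird at 8L. 1 bird at 12Lv and 1 at 14Lv lay below every bird at 8L. Without the 9 libraries, 12Lv had the highest mean on that scale too, 0.899 ± 0.0450% (SD, n = 4).

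**Figure D1:**
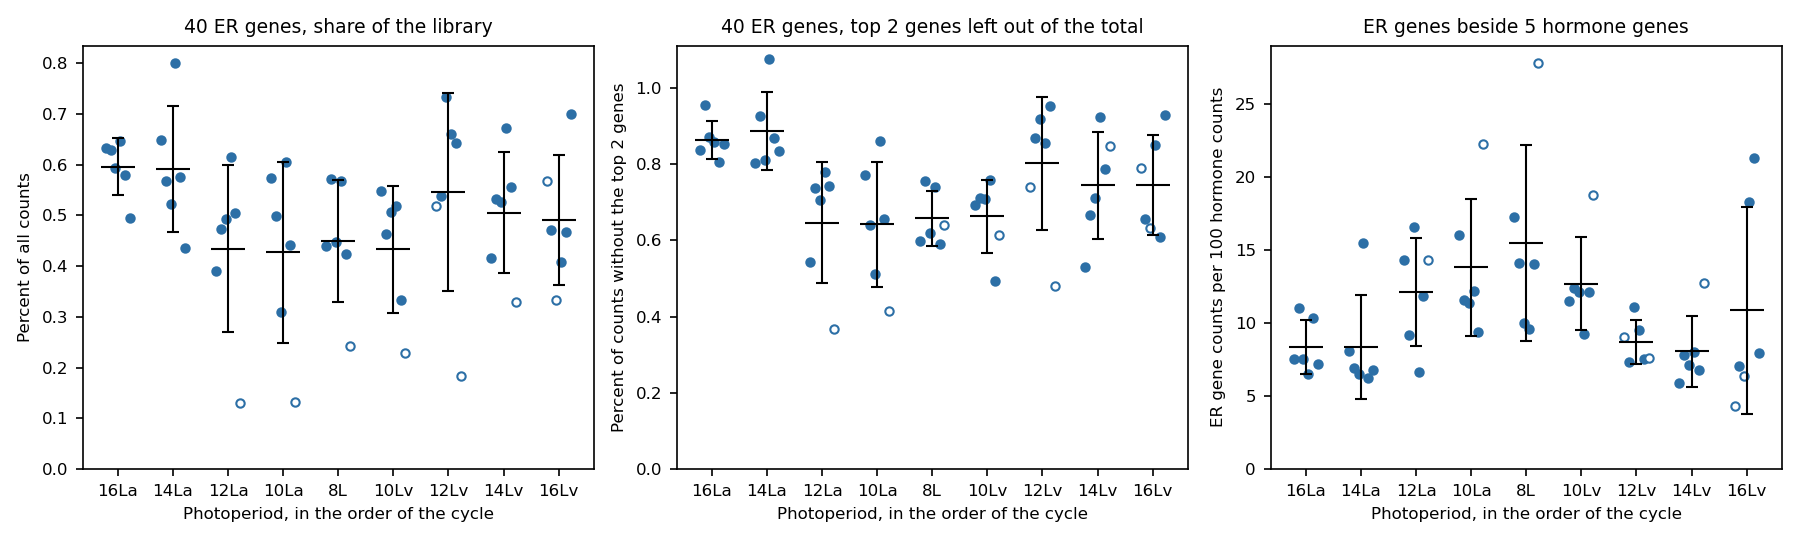
Summed counts of the 40 endoplasmic reticulum genes in each bird, as a percentage of the library (left), as a percentage of the library without LOC107307159 and ACOT9 (middle) and per 100 counts of 5 hormone genes (right), by photoperiod; points are birds, open points the 9 libraries with fewer than 2000 genes, and bars the mean ± SD of 6 birds. With the 2 genes left out, the birds at 16La and 14La sit at 0.803% or higher and those at 8L at 0.757% or lower, and the ratio to the hormone genes has a mean of 15.5 at 8L and 8.36 at 16La over all birds.

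By role, chaperones and their cofactors took 0.217 ± 0.0458% of the library at 16La and 0.139 ± 0.0408% at 8L, with 0.142 ± 0.0552% at 16Lv. Disulfide enzymes took 0.0819 ± 0.0190% in 16La birds, 0.0554 ± 0.0263% in 8L birds and 0.0892 ± 0.0405% in 12Lv birds. The translocation channel differed less in its means, with 0.155 ± 0.0232% in 16La birds, 0.141 ± 0.0316% in 8L birds and 0.163 ± 0.0600% in 16Lv birds. Oligosaccharyltransferase took 0.0951 ± 0.0165% at 16La and 0.0712 ± 0.0285% at 8L, and signal peptidase 0.0376 ± 0.0145% and 0.0321 ± 0.0192%. In every role group birds at 16La and 8L overlapped.

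The genes were then tested singly. Of the 31 genes tested, 0 differed among the 9 photoperiods by edgeR's quasi-likelihood test at an adjusted p under 0.05, where 1.37% of the 1460 genes tested did. The lowest adjusted p of the 31 was 0.591, for HSP90B1, the reticulum's HSP90 chaperone (unadjusted p = 0.0239). At an unadjusted p under 0.05, 1 of the 31 genes differed, against 5.55% of all genes. In this and the 9 comparisons that follow, DESeq2 on the counts and limma on the deposited CPM also called 0 of these genes, with 3 and 1 of them at an unadjusted p under 0.05 here.

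**Figure D2:**
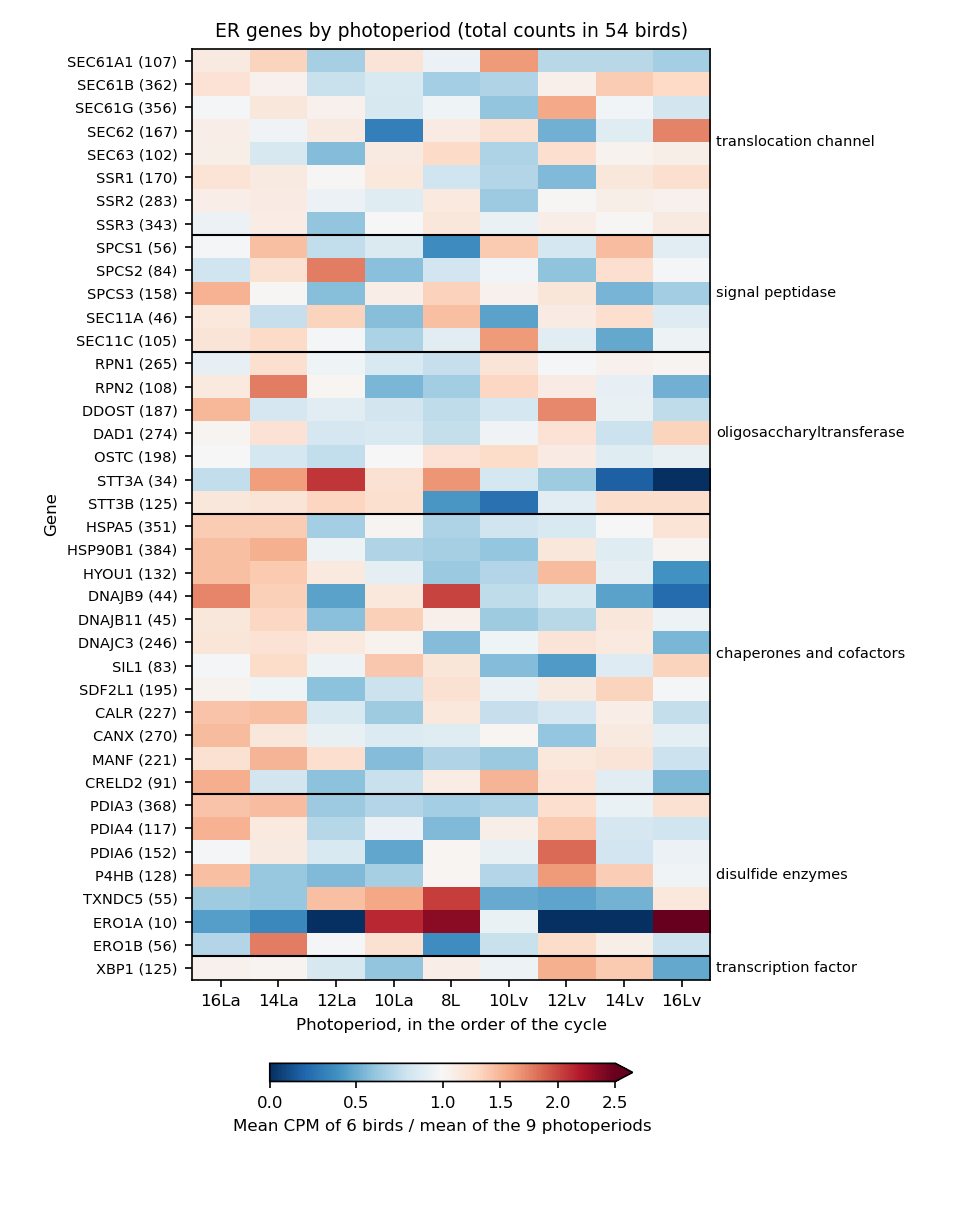
Mean CPM of 6 birds at each photoperiod divided by the mean of the 9 photoperiods, for the 40 genes ordered by role, with total counts in parentheses; the colours are linear on either side of white at 1 and end at 2.5. Chaperones and cofactors with more than 200 counts, and the disulfide enzyme PDIA3, have their highest ratio at 16La or 14La. Those with fewer counts differ in this. PDIA4 and CRELD2 have their highest ratio at 16La, ERO1B at 14La, PDIA6, P4HB and HYOU1 at 12Lv, SDF2L1, with 195 counts, at 14Lv, and ERO1A at 16Lv. SIL1 and DNAJB11 have theirs at 10La, and DNAJB9 and TXNDC5 at 8L. Of all 40 genes, 13 have their highest mean at 16La or 14La, 6 at 8L and 6 at 12Lv. Rows with few counts, such as ERO1A with 10, vary most.

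At 8L against 16La, which compares the turning point with the starting photoperiod, 0 of the 31 genes passed the test (0.411% of all genes did). The 8L birds were also sampled later, so day length and time in the experiment cannot be told apart here. The 6 libraries at 8L held 120768 counts together and those at 16La 200436, so low values at 8L lie nearer the floor. At an unadjusted p under 0.05, 5 of the 31 were lower at 8L and 0 higher, where 3.01% of all genes were lower. The log2 fold change was below 0 in 25 of the 31 genes, against 53.6% of all genes, and its median was -0.48 in the 31 and -0.04 over all genes. These 31 passed the filter on counts, and over all 40 genes the pooled counts per library total were lower at 8L in 26 and higher in 14. That pooled count was not made over all genes, so it cannot be read against a background. The median log2 fold change was -0.80 in the 4 tested disulfide enzymes, -0.76 in the 10 chaperones and cofactors, -0.58 in the 6 oligosaccharyltransferase subunits, -0.34 in the 2 signal peptidase subunits and -0.13 in the 8 genes of the translocation channel. No gene of the 31 had groups without overlap in CPM, where 0.548% of all genes did. The intervals were wide, and 1 of the 31 genes had a 95% interval within 1 log2 unit on either side of 0, so that for the other 30 a 2-fold difference in one direction or the other lay within the interval.

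Among the chaperones, HSP90B1 had 297 CPM in the lowest bird at 16La, 376 CPM at the median and 530 CPM in the highest. At 8L these values were 60.9, 157 and 306 CPM. 5 of the 6 8L birds were under the lowest 16La bird, and the log2 fold change was -1.16 ± 0.48 (SE; unadjusted p = 0.0113, adjusted p = 0.717, edgeR). Mean levels of HSP90B1 in the other groups were 401 ± 151 CPM (14La), 248 ± 156 CPM (12La), 184 ± 182 CPM (10La), 162 ± 104 CPM (10Lv), 306 ± 179 CPM (12Lv), 230 ± 133 CPM (14Lv) and 272 ± 246 CPM (16Lv). The levels from 12La to 10Lv and those of the rising arm overlapped throughout.

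HSPA5, the BiP chaperone that also holds the sensors of the unfolded protein response inactive, had 208, 360 and 486 CPM in the lowest, median and highest bird at 16La. At 8L it had 0, 170 and 306 CPM. 4 of the 6 8L birds were under every 16La bird, with a log2 fold change of -0.98 ± 0.48 (SE; unadjusted p = 0.0362, adjusted p = 0.972, edgeR). DNAJC3, a cochaperone of HSPA5, had 119, 182 and 283 CPM at 16La. At 8L it had 0, 104 and 225 CPM, and the log2 fold change was -1.10 ± 0.59 (SE; unadjusted p = 0.0469, adjusted p = 0.991, edgeR). 3 of the 6 8L birds were under every 16La bird.

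The lectin chaperones CALR and CANX, which bind newly glycosylated proteins, had means of 231 ± 123 and 276 ± 128 CPM at 16La and of 188 ± 107 and 164 ± 103 CPM at 8L. HYOU1, an HSP70-like chaperone, had 131 ± 108 CPM at 16La and 56.7 ± 83.4 CPM at 8L. All 3 overlapped between the groups and had unadjusted p values above 0.05.

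PDIA3, the disulfide isomerase that works with CALR and CANX, had 177, 404 and 509 CPM in the lowest, median and highest bird at 16La. At 8L it had 0, 149 and 349 CPM. 4 of the 6 8L birds were under every 16La bird, and the log2 fold change was -1.11 ± 0.47 (SE; unadjusted p = 0.0148, adjusted p = 0.781, edgeR). PDIA3 had a mean of 392 ± 141 CPM in 14La birds, means between 170 and 189 CPM in the 12La, 10La and 10Lv groups, and then 335 ± 222 CPM (12Lv), 248 ± 152 CPM (14Lv) and 328 ± 235 CPM (16Lv). The range of every photoperiod overlapped with that of 16La. PDIA6, another isomerase, had close means at both ends, with 111 ± 65.2 CPM at 16La and 117 ± 82.2 at 8L, and a log2 fold change of -0.02 (95% interval -1.19 to 1.15).

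In the translocation channel, SEC61B, a small subunit of the pore, had 267, 331 and 437 CPM in the lowest, median and highest bird at 16La. At 8L it had 60.9, 178 and 385 CPM. 5 of the 6 8L birds were under every 16La bird, with a log2 fold change of -1.02 ± 0.47 (SE; unadjusted p = 0.0233, adjusted p = 0.844, edgeR). Its partner subunit SEC61G had means of 255 ± 132 CPM at 16La and 245 ± 140 at 8L, and the signal sequence receptor subunits SSR2 and SSR3 had 225 ± 57.6 and 254 ± 228 CPM at 16La and 234 ± 115 and 314 ± 111 at 8L. The log2 fold change was 0.00 for SSR2 (95% interval -0.92 to 0.92) and 0.31 for SSR3 (95% interval -0.62 to 1.24). For SSR2 the birds at 16La lay within the range of those at 8L. SSR3 had 708 CPM in 1 bird at 16La and 97.1 to 208 CPM in the others, against 169 to 487 CPM at 8L. 5 of the 6 8L birds, at 258 CPM or more, lay above those others.

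Among the oligosaccharyltransferase genes, STT3B, a catalytic subunit, had 56.5, 99.1 and 133 CPM in the lowest, median and highest bird at 16La. At 8L it had 0, 21.5 and 87.3 CPM, and at 10Lv 0, 0 and 75.1 CPM. No bird at 8L or 10Lv held more than 2 counts of STT3B, so these values lie near the floor. The groups at 16La and 8L overlapped, and the log2 fold change was -1.27 ± 0.83 (SE; unadjusted p = 0.0773, adjusted p = 0.999, edgeR). The other subunits with the most counts, DAD1 and RPN1, had means of 210 ± 107 and 177 ± 105 CPM at 16La and of 155 ± 74.6 and 149 ± 111 CPM at 8L, and also overlapped. SPCS3, the signal peptidase subunit with the most counts, had 164 ± 58.5 and 145 ± 79.4 CPM.

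**Figure D3:**
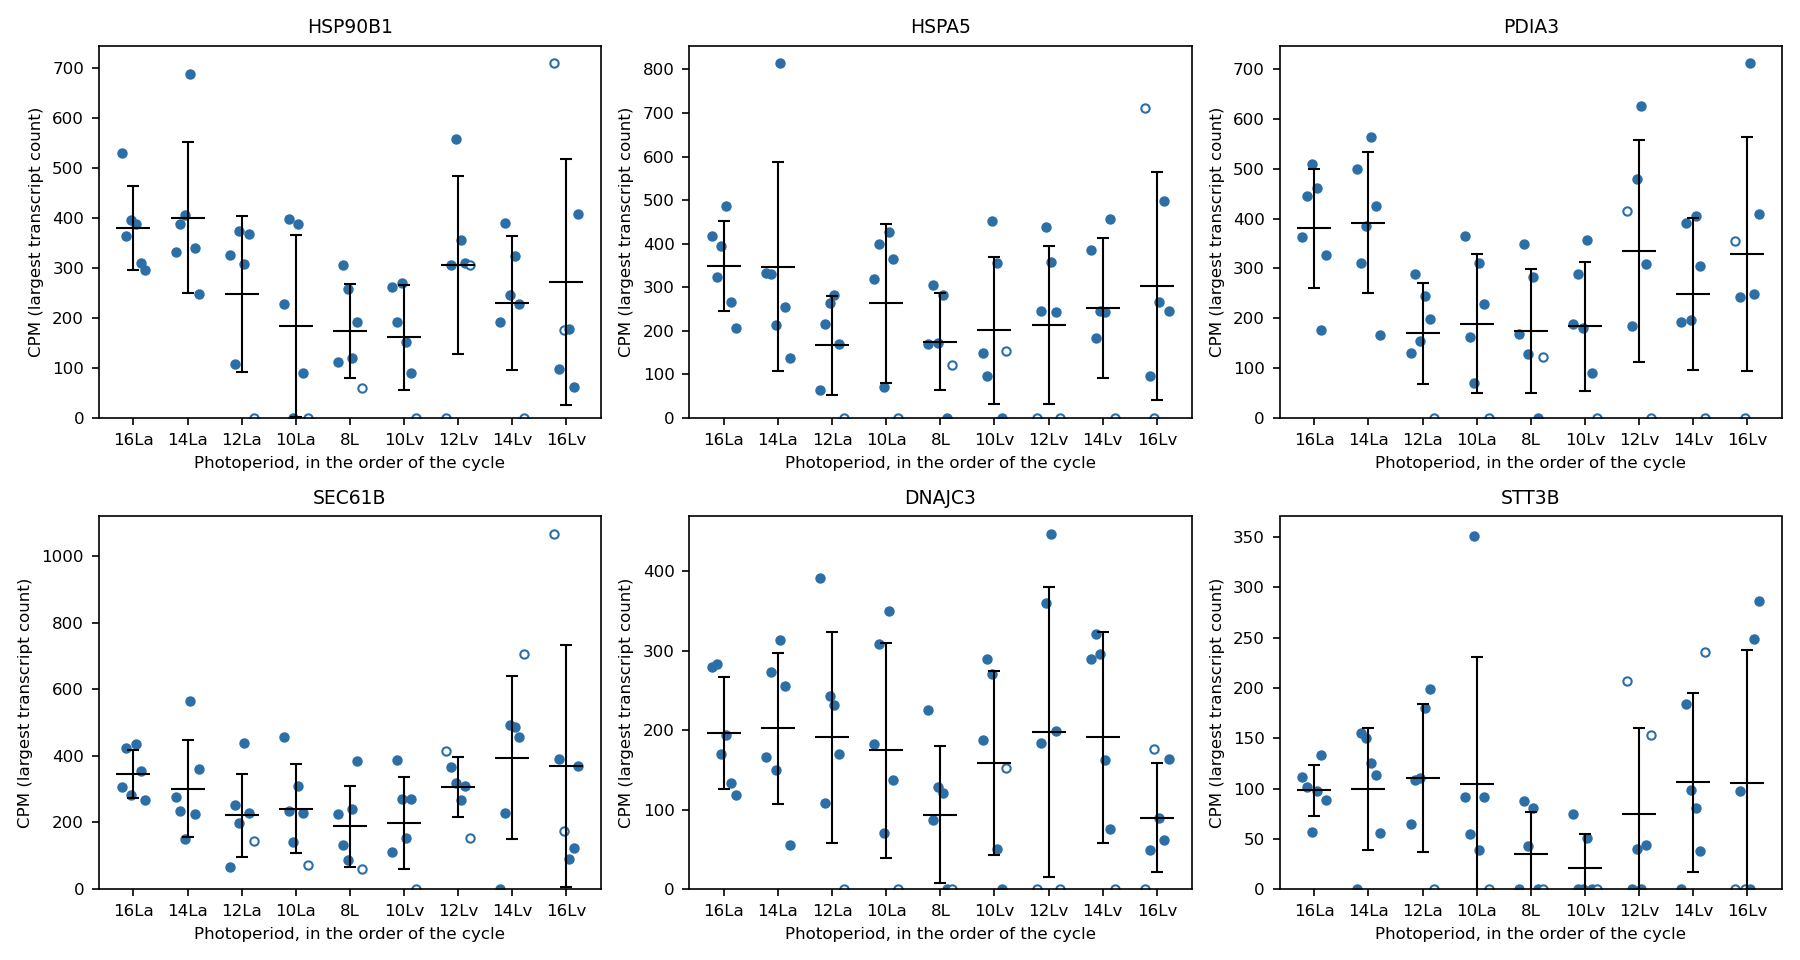
CPM of 6 endoplasmic reticulum genes in each bird by photoperiod; points are birds, open points the 9 libraries with fewer than 2000 genes, and bars the mean ± SD of 6 birds. HSP90B1 lies at or above 297 CPM in every bird at 16La and at or below 306 CPM at 8L, and birds at 0 CPM appear in most photoperiods from 12La onward.

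XBP1 and 5 genes that it or the other arms of the unfolded protein response are known to raise in mammals were looked at together. XBP1 had means of 99.7 ± 55.4 CPM at 16La and 103 ± 82.1 at 8L, with a log2 fold change of -0.01 (95% interval -1.26 to 1.23). SDF2L1, a cofactor of HSPA5, had 163 ± 77.4 CPM at 16La and 190 ± 129 CPM at 8L. The cofactor MANF had a median of 131 CPM at 16La (range 83.7 to 364) and of 109 CPM at 8L (range 0 to 218), and CRELD2 ranged from 27.9 to 194 CPM at 16La and from 0 to 192 CPM at 8L. None of these 4 had an unadjusted p under 0.05 in this comparison, in which HSPA5 did. DNAJB9, a further cochaperone, had 44 counts in all 54 birds and was not tested, with a median of 28.8 CPM at 16La (range 0 to 170) and of 43.7 CPM at 8L (range 0 to 161). Mean levels were close for XBP1, higher at 8L for SDF2L1 and DNAJB9 and lower for HSPA5, MANF and CRELD2, with overlapping birds in each case. The SDF2L1 mean at 8L includes 426 CPM, from 7 counts, in a library with 1545 genes detected. The other 8L birds had 80.6 to 225 CPM of SDF2L1.

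The slope on hours of light used all 9 photoperiods. Here 0 of the 31 genes passed the test, against 0.685% of all genes. At an unadjusted p under 0.05, 4 of the 31 had a positive slope and 0 a negative one, where 2.67% of all genes had a positive slope at that level. The slope was above 0 in 22 of the 31 genes and in 42.9% of all genes, with medians of 0.04 and -0.01 log2 units per hour. The 4 genes were PDIA3 with a slope of 0.13 ± 0.05 (SE; unadjusted p = 0.00387, adjusted p = 0.297, edgeR), STT3B with 0.18 ± 0.08 (0.00590 and 0.345), SEC61B with 0.10 ± 0.04 (0.0258 and 0.722) and HSP90B1 with 0.09 ± 0.05 (0.0446 and 0.758). The slope comparison shares its birds with 8L against 16La, so these values are not a second source of evidence for the same genes. All 31 intervals lay within 0.336 log2 units per hour of 0. This bound is per hour, so over the whole range from 8 h to 16 h it leaves room for a large difference.

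**Figure D4:**
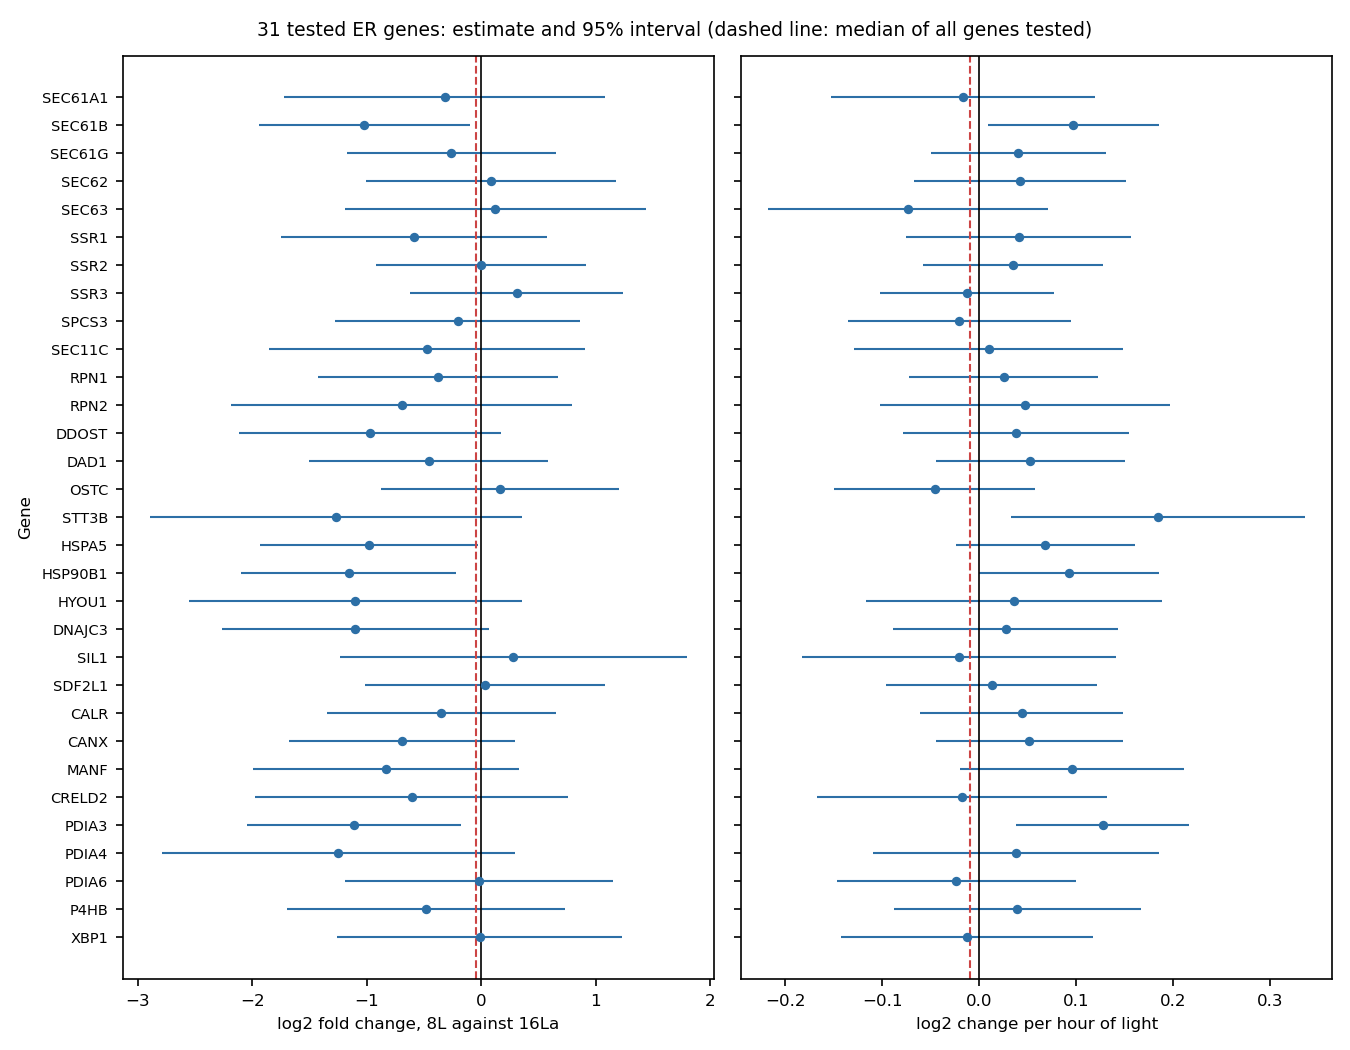
Log2 fold change at 8L against 16La (left) and log2 change per hour of light over the 9 photoperiods (right) for the 31 tested genes, with 95% intervals; the dashed line is the median of the 1460 genes tested, -0.04 and -0.01. In 8L against 16La 25 of the points lie below 0, and on the right 22 lie above 0.

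The 2 arms were compared at equal day length. In 16Lv against 16La, 0 of the 31 genes passed (0.0685% of all genes did), and 2 of the 31 had an unadjusted p under 0.05, against 5.75% of all genes. The log2 fold change was below 0 in 26 of the 31, against 67.7% of all genes, with medians of -0.60 and -0.27. HSP90B1 had a log2 fold change of -1.03 ± 0.50 (SE; unadjusted p = 0.0335, adjusted p = 0.802, edgeR) and DNAJC3 one of -1.26 ± 0.67 (0.0405 and 0.810). DNAJC3 had a mean of 89.9 ± 68.4 CPM at 16Lv, and 4 of the 6 16Lv birds were under every 16La bird. These 4 birds held 0, 1, 1 and 1 counts of DNAJC3. The 6 libraries at 16Lv held 80782 counts together and those at 16La 200436, so low values at 16Lv lie near the floor. In 16Lv against 8L, 0 of the 31 passed (0.205% of all genes did), and 1 had an unadjusted p under 0.05 (4.38% of all genes), STT3B at 1.60 ± 0.87 (unadjusted p = 0.0373, adjusted p = 0.980).

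At 14 h 0 of the 31 genes passed (0.0685% of all genes), at 12 h 0 (0.479%) and at 10 h 0 (0%). At an unadjusted p under 0.05 these counts were 0, 1 and 0, against 4.52%, 5.41% and 2.53% of all genes. The median log2 fold change of the spring-like over the autumn-like group was -0.43 at 14 h, 0.06 at 12 h and -0.08 at 10 h in the 31 genes, and -0.13, -0.23 and -0.11 over all genes. At 12 h STT3B had a log2 fold change of -1.61 ± 0.82 (SE; unadjusted p = 0.0231, adjusted p = 0.670, edgeR). No bird at 12Lv held more than 2 counts of STT3B, so its values there lie near the floor. At 10 h SEC62, which helps proteins enter the channel after their synthesis, had means of 42.1 ± 51.4 CPM at 10La and 165 ± 137 CPM at 10Lv (unadjusted p = 0.0643). P4HB, a disulfide isomerase that is also a subunit of prolyl hydroxylase, had 56.2 ± 46.7 CPM at 12La and 164 ± 97.5 CPM at 12Lv (unadjusted p = 0.0712).

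For the mean of the 4 rising against the 4 declining photoperiods, 0 of the 31 genes passed (0.137% of all genes did). At an unadjusted p under 0.05, 3 were lower on the rising arm, against 8.9% of all genes. These were HSP90B1 at -0.55 ± 0.25 (SE, log2; unadjusted p = 0.0205, adjusted p = 0.439, edgeR), STT3B at -0.77 ± 0.40 (0.0306 and 0.464) and HYOU1 at -0.70 ± 0.38 (0.0466 and 0.501). The spring slope minus the autumn slope passed in 0 of the 31 genes (0% of all genes), and it was below 0 in 30 of the 31, against 66.6% of all genes. At an unadjusted p under 0.05 there were 2 of the 31 (5.82% of all genes), CRELD2 with 0.0307 and HSP90B1 with 0.0404. Depth also differed between the arms. The libraries of the rising and declining groups held 80782 and 200436 counts together at 16 h, and 117115 and 203445 at 14 h. At 12 h they held 109130 and 208071, and at 10 h 85326 and 152617. Low values on the rising arm therefore lie nearer the floor. No bird at 16Lv held more than 3 counts of HYOU1.

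Of the hormone genes, PRL, CGA and FSHB passed the test in the comparison of 8L with 16La in which no endoplasmic reticulum gene did. PRL, which encodes prolactin, had a log2 fold change of -2.65 ± 0.43 at 8L against 16La (SE; adjusted p = 1.31e-05, edgeR) and CGA, the alpha subunit of the gonadotropins and thyrotropin, one of -2.30 ± 0.39 (adjusted p = 3.05e-05). FSHB, which encodes the beta chain of follicle-stimulating hormone, had 0 counts in all 6 birds at 8L and a mean of 427 ± 354 CPM at 16La (adjusted p = 0.00201, edgeR). POMC, the precursor of corticotropin, had 0.03 ± 0.54 (SE; adjusted p = 0.999). TSHB, the beta chain of thyrotropin, had 0.55 ± 0.59 (SE; adjusted p = 0.999, edgeR). Its slope on hours of light was negative, -0.15 ± 0.06 log2 units per hour (SE; unadjusted p = 0.0103, adjusted p = 0.470, edgeR). Together these 5 genes took 7.40 ± 1.67% of the library at 16La and 3.48 ± 1.74% at 8L. The endoplasmic reticulum genes had 8.36 ± 1.86 counts per 100 hormone counts at 16La and 15.5 ± 6.68 at 8L, a ratio of 1.85. In 4 of the 6 birds at 16La this value was below every bird at 8L. With POMC left out of the hormone counts the ratio was 3.99. Without the 9 libraries with fewer than 2000 genes the 5 birds left at 8L had 9.59 to 17.3 counts per 100 hormone counts, with a mean 1.55 times that at 16La, and the highest mean was then that of 16Lv, 13.6 ± 7.22 (SD, n = 4). With lengthening days there were 12.7 ± 3.18 endoplasmic reticulum counts per 100 counts of all 5 hormone genes in 10Lv birds, 8.69 ± 1.48 in 12Lv birds, 8.06 ± 2.42 in 14Lv birds and 10.9 ± 7.08 in 16Lv birds.

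Markers of the endocrine cells, a list of 15 symbols of which 11 had a row and which includes these hormones, summed to 90771 ± 22314 CPM at 16La, 50728 ± 25093 at 8L and 76100 ± 24806 at 12Lv. The 6 of them that are not hormones (the granins and secretogranins CHGA, CHGB, SCG2 and SCG3, and the prohormone convertases PCSK1 and PCSK2) summed to 16749 ± 6035 CPM at 16La and 15908 ± 9116 at 8L, so that most of the difference in the summed level lay in the hormone genes. At 8L against 16La the log2 fold change was -0.11 for CHGA (95% interval -1.17 to 0.95), -0.22 for SCG2 (-1.13 to 0.69), -0.46 for SCG3 (-1.22 to 0.29) and -0.87 for CHGB (-1.85 to 0.12), and none of these 4 passed (adjusted p = 0.999 each, edgeR).

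Markers of other cells also differed among photoperiods. The fibroblast and matrix list, with counts for 7 of 7 genes, summed to 796 ± 396 CPM at 16La, 1940 ± 1180 at 12La, 957 ± 601 at 8L and 639 ± 258 at 12Lv. Of its genes the collagen chain COL1A2, the matrix protein SPARC and the filament protein VIM passed for any difference among photoperiods (adjusted p = 0.00167, 0.00529 and 0.00529, edgeR). COL1A2 and SPARC were also lower at 12Lv than at 12La, with log2 fold changes of -2.85 ± 0.80 and -1.76 ± 0.45 (SE; adjusted p = 0.00880 and 0.0114, edgeR). VIM had 1.21 ± 0.57 at 8L against 16La (SE; unadjusted p = 0.0263, adjusted p = 0.916, edgeR). MBP, a myelin protein in the glia and nerve list, passed for any difference as well (adjusted p = 0.000420, edgeR), and 1 bird at 12La held 5428 CPM of that list, whose mean was 71.1 ± 60.6 CPM at 16La and 63.9 ± 53.4 at 8L. The immune list, with counts for 4 of 4 genes, had a median sum of 48.1 CPM at 16La (0 to 88.6 over the 6 birds) and 90.9 at 8L (0 to 169), and the birds overlap. In whole glands fewer cells of a type and less RNA per cell cannot be told apart, and the part of cell composition in the share was not tested.

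Whether birds with more hormone RNA also had more of these genes was examined within photoperiods. For the 4 genes with the highest mean share (SEC61B, SSR3, PDIA3 and HSP90B1) and for PRL, CGA and POMC, each bird's log2 of CPM plus 24.5 was taken as a deviation from the mean of its photoperiod. Among 45 birds with 2000 genes or more, 0 of the 12 relations passed an adjusted p under 0.05 (permutation test, 100000 resamples within photoperiods, two-sided, Benjamini-Hochberg over the 12). PDIA3 and PRL had r = 0.180 and rho = 0.237 there (permutation p = 0.310 and 0.154; adjusted 0.527 and 0.465). Over all 54 birds 5 of the 12 passed by both measures, with r = 0.649 and rho = 0.527 for PDIA3 and PRL (permutation p = 3e-05 and 0.00025; adjusted 0.00036 and 0.00198), and r = 0.518 without the 2 birds farthest from the median of PRL. The relations over all birds were thus not seen without the 9 libraries with the fewest genes. Without the highest-numbered bird of each photoperiod 0 of the 12 passed as well. With LOC107307159 and ACOT9 left out of the library total, fewer of the 12 passed over all 54 birds. PDIA3 and PRL then had r = 0.476 and rho = 0.413 (permutation test, adjusted p = 0.00966 and 0.0414). The cause was not tested. HSP90B1 and CGA had r = 0.119 over all birds (permutation p = 0.477, adjusted 0.572).

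**Figure D5:**
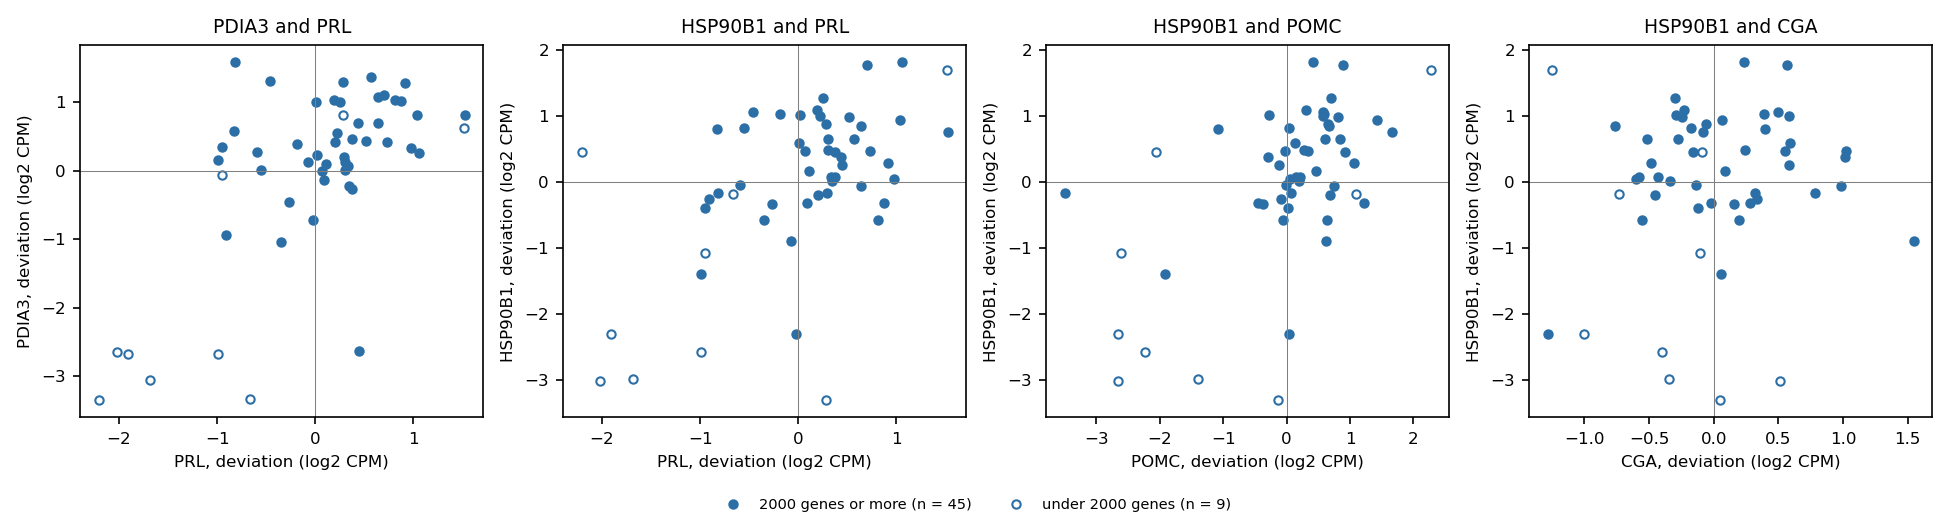
Deviation of each bird from the mean of its photoperiod, in log2(CPM + 24.5), for 4 pairs of an endoplasmic reticulum gene (vertical axis) and a hormone gene (horizontal axis); open points are the 9 libraries with fewer than 2000 genes. Most open points lie at the lower left for PRL and POMC, and among the 45 filled points PDIA3 and PRL have r = 0.180.

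A list of 90 other genes of the secretory pathway (transport vesicles, retrieval receptors, degradation, stress sensors and further folding factors), chosen with results of these data known, had 73 genes with a row and 24 that were tested. In each of the 10 comparisons 0 of these 24 passed by edgeR. An unadjusted p under 0.05 was reached by 2 of the 24 for any difference among photoperiods (5.55% of all genes tested), by 1, lower, at 8L against 16La (3.01% of all genes were lower at that level) and by 4, all lower, in the rising against the declining arm (8.9% of all genes). In the other 7 comparisons it was reached by 0 to 2 of the 24, where 2.53% to 6.44% of all genes tested reached it. The lowest p values for any difference among photoperiods belonged to ERP29, a folding factor of the reticulum (unadjusted p = 0.0141, adjusted p = 0.499, edgeR), and CREB3L2, a membrane-bound transcription factor of secretory cells (0.0309 and 0.683). TMED10, a cargo receptor, and KDELR2, which returns escaped chaperones, followed with unadjusted p values of 0.193 and 0.198, and OST4, a small oligosaccharyltransferase subunit, and NUCB2, a calcium-binding secretory protein, with 0.237 and 0.250. At 8L against 16La the log2 fold change was below 0 in 16 of the 24, and in 53.6% of all genes tested. In 16Lv against 16La it was below 0 in 21 (67.7% of all genes). In the rising against the declining arm it was below 0 in 22 (1072 of the 1460 genes), and at 10 h in 9 (835 of the 1460). The spring slope minus the autumn slope was below 0 in 22 (66.6% of all genes). In the same order the 31 endoplasmic reticulum genes had 26, 25, 17 and 30, so lower values on the rising arm were not particular to them. CREB3L2 had the lowest p of the 24 for the rising against the declining arm (unadjusted p = 0.000426, adjusted p = 0.104).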

How the data were processed

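Pituitary RNA of 54 birds was measured, 1 library per bird, and groups were taken from each bird's treatment label. Estimated counts were deposited for 40282 transcripts. The tools named in the submitters' processing notes are Salmon 0.14.2, minimap2 2.17 and edgeR 3.24.3, and what each did, and on which genome build, is not given in the sources used here. A deposited CPM table was treated as a normalised signal, since its columns sum to between 327092 and 1790364, and served alternatives only.

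The largest transcript count per gene and bird was rounded (0.283% of count values were not whole) and tested in R 4.3.3 with the robust quasi-likelihood F-test of edgeR 4.0.16, after TMM scaling and a filterByExpr minimum count of 3. All 54 birds entered with 1 mean per photoperiod, and Benjamini-Hochberg adjustment ran over the 1460 genes tested, with a threshold of 0.05. Standard errors and 95% intervals are Wald values from the same fit, so an interval can differ slightly from its p. The test was checked on simulated data with planted changes larger than those estimated for the endoplasmic reticulum genes. The check therefore does not cover changes of the size estimated here. Wilson intervals were computed for pooled shares and for the shares of single birds. All counting intervals cover counting error only, because reads carry no molecular identifiers. Alternatives were another scaling, other filters, summed transcripts, DESeq2 1.42.0, the log2 library total as a covariate, limma 3.58.1 on the log2 deposited CPM with a pseudocount of 1, only the groups compared, and leaving out libraries. For the hormone relations, leaving out the highest-numbered birds and a library total without its 2 most abundant genes were chosen after seeing the data.

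The genes, the other lists and the comparisons were chosen with earlier results of these data known. Genes named with values are those past the threshold, the 12 with the highest mean share, and XBP1 and 5 targets of the unfolded protein response. Named as well are up to 5 in each direction by p in a comparison and the 6 other pathway genes with the lowest p for any difference. The hormone genes PRL, CGA, FSHB, POMC and TSHB are also named. Of those named by p, only the genes with an unadjusted p under 0.05 and a few others are described, and the remaining genes are given by counts and medians. LHB, GH and GH1 were not analysed here. Sequences and coordinates were not used here.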

Additional observations from a re-analysis of the deposited data

Results flagged for a closer look

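In each photoperiod of 6 birds, the highest and the lowest bird were compared with the nearest other bird, for 21 quantities, and the gap exceeded Dixon's 95% critical value in 19 of 189 groups. Chance flags about 1 in 20 groups when values are independent and normally distributed. Most of the 21 quantities are CPM of genes with few counts and many zeros, so that rate need not hold here.

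Counts of the endoplasmic reticulum genes per 100 hormone counts were 15.46 in bird 4 at 14La (nearest other bird 8.063), 18.75 in bird 6 at 10Lv (12.37) and 12.73 in bird 6 at 14Lv (8.043), numbering birds by replicate. Bird 4 at 14La stood above the others in 2 chaperones as well, with 688.8 CPM of HSP90B1 (nearest 407) and 814 CPM of HSPA5 (nearest 332.9).

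In libraries with fewer than 2000 genes, SEC61B was 1066 CPM in bird 1 at 16Lv (389.3), SSR3 was 0 CPM in bird 6 at 10Lv (225.4), SSR2 was 0 CPM in bird 6 at 12Lv (207.2), and SDF2L1 was 458.6 CPM in bird 6 at 10Lv (152.6) and 414.4 CPM in bird 1 at 12Lv (199.1). The high value of SEC61B came from 3 counts and those of SDF2L1 from 3 and 2. The part of depth in these values was not tested.

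In libraries with more genes, SSR3 was 708.5 CPM in bird 5 at 16La (207.6), RPN1 was 362.5 CPM in bird 4 at 8L (168.8), CALR was 318.8 CPM in bird 1 at 10La (116.6) and STT3B was 351.6 CPM in bird 3 at 10La (91.2). CRELD2 was 0 CPM in bird 3 at 14La (55.49) and 243.2 CPM, from 3 counts, in bird 4 at 14Lv (76.04). DNAJB9 was 169.6 CPM in bird 3 at 16La (60.69), 110.6 CPM in bird 5 at 12Lv (39.92) and 40.95 CPM in bird 6 at 16Lv, where the other birds were at 0. These DNAJB9 values came from 3, 5 and 1 counts, so they lie near the floor.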

How the results depend on the processing

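The count of endoplasmic reticulum genes past the threshold was 0 in all 10 comparisons under every alternative run, including leaving out each library in turn, and the count of other pathway genes was 0 under the 10 alternatives run for them. With a minimum count of 10 none of the 40 genes was tested, so that setting says nothing about them. The median log2 fold change at 8L against 16La ranged from -1.27 with limma on deposited CPM (all genes -0.73) to -0.24 with the log2 total as a covariate (all genes 0.13). The share at 8L was 0.753 times that at 16La, and 0.711 to 0.822 without each replicate in turn. The ratio to the hormone genes at 8L over that at 16La was 1.85, 1.55 to 1.99 without each replicate in turn, and 3.99 without POMC. Of 12 relations to hormone genes, 5 passed over all birds, 1 in the declining arm with 8L, 3 in the rising arm with 8L, 1 with a library total without the 2 genes with the most counts, and 0 without libraries under 2000 genes or without the highest-numbered birds, and the cause was not tested. The median over the 31 genes changed sign among the alternatives at 12 h (-0.13 to 0.29), at 10 h (-0.45 to 0.16), in 16Lv against 8L (-0.97 to 0.27) and between the arms (-1.09 to 0.02), and no value of a single gene with an unadjusted p under 0.05 changed sign. No paired analysis was possible because replicate numbers follow the order of deposition and pair no birds across photoperiods. Depth limits what can be seen, since 1 count was worth up to 355 CPM.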
